A study of Mus musculus with 12 samples.

Results

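Dpep2, a membrane dipeptidase gene, and 8 other genes of cysteinyl leukotriene metabolism were examined in mouse aorta after CM-695. The members were Dpep1, Dpep2, Dpep3, Alox5, Alox5ap, Ltc4s, Lta4h, Ggt5 and Cysltr1, taken by exact gene symbol, which makes 9 of the 22180 genes that the arrays measured with a probe set naming a single gene. Dpep2 was chosen by its CM-695 minus vehicle difference, having been lower in this same comparison, so that difference is given as a description without a test. The other 8 were picked as genes of its pathway. The CM-695 group held 6 female CD-1 animals that received CM-695, a compound that blocks both histone deacetylase 6 and phosphodiesterase 9, by intraperitoneal injection at 80 mg/kg, once 2 h and once 1 h before they were killed. The other 6 female CD-1 mice received saline as vehicle, given once per the series design, whereas CM-695 was given 2 times. CD-1 is an outbred stock, and all mice were perfused with buffered saline before the aorta was frozen. The sources used here do not state ages.

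Cysteinyl leukotrienes are lipid mediators that contract smooth muscle and make small vessels leak. Arachidonate freed from membranes is oxidised by the lipoxygenase that Alox5 encodes, with help from the membrane protein of Alox5ap, to leukotriene A4. The hydrolase of Lta4h turns it into leukotriene B4, whereas the synthase of Ltc4s joins it to glutathione to give leukotriene C4. Outside the cell the gamma-glutamyl transferase of Ggt5 removes glutamate, which leaves leukotriene D4, and dipeptidases of the Dpep family remove glycine, which leaves leukotriene E4. Leukotriene D4 is the preferred ligand of the receptor encoded by Cysltr1. Macrophages are a main source of leukotrienes and are also a known site of Dpep2 expression in mice.

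Expression was read as RMA log2 values with 1 array for each aorta, a scale on which 1 unit is a doubling. The arrays were alike, with medians of 4.69 to 4.74 and pairwise correlations of 0.957 to 0.977. The 6 smooth muscle marker genes were all brighter than the median probe set, as were 6 of 6 endothelial genes. The same held for 8 of 8 cardiac muscle, 7 of 7 fibroblast and 6 of 6 adipocyte genes. These counts therefore do not tell aorta from the tissue around it. In whole tissue, fewer cells of a type and less RNA per cell cannot be told apart. Precision is limited by the 6 mice in each group.

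All 6 CM-695 aortas had less Dpep2 than the vehicle aorta with the least. It ranged from 5.55 to 6.05 with a median of 5.71 after CM-695, against 6.49 to 7.79 with a median of 6.86 after vehicle. The groups did not overlap. The highest vehicle animal was mouse 4, and the other vehicle mice reached 7.20. The CM-695 mean was 5.73 ± 0.19 and the vehicle mean 7.0 ± 0.45 (SD over 6 mice each). The difference was -1.27 log2 (SE 0.18, 95% confidence interval -1.66 to -0.87), and the vehicle level was 2.41-fold the CM-695 level. Among all genes 0.636% had groups separated downward in this way and 0.442% upward. Without the highest vehicle mouse the difference was -1.11. Dpep2 lies on mouse chromosome 8 at 105984945 to 106006026 (GRCm38.p6).

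The lower Dpep2 level was seen by 1 of its 2 probe sets. The brighter one gave the values above, because each gene was read from its brightest probe set by the mean of 12 arrays. The dimmer one ranged from 4.63 to 5.24 after CM-695 and from 4.41 to 5.13 after vehicle, so that its groups overlapped. Its difference had the opposite sign, 0.22 log2 (SE 0.14, limma adjusted p = 0.659), and its CM-695 mean was 5.06 ± 0.23 and its vehicle mean 4.83 ± 0.25 (SD over 6 mice each). These levels were close to the median of all values, 4.72. Which part of the gene each probe set reads is not given in the sources used here, and the values carry no detection calls.

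**Figure D1:**
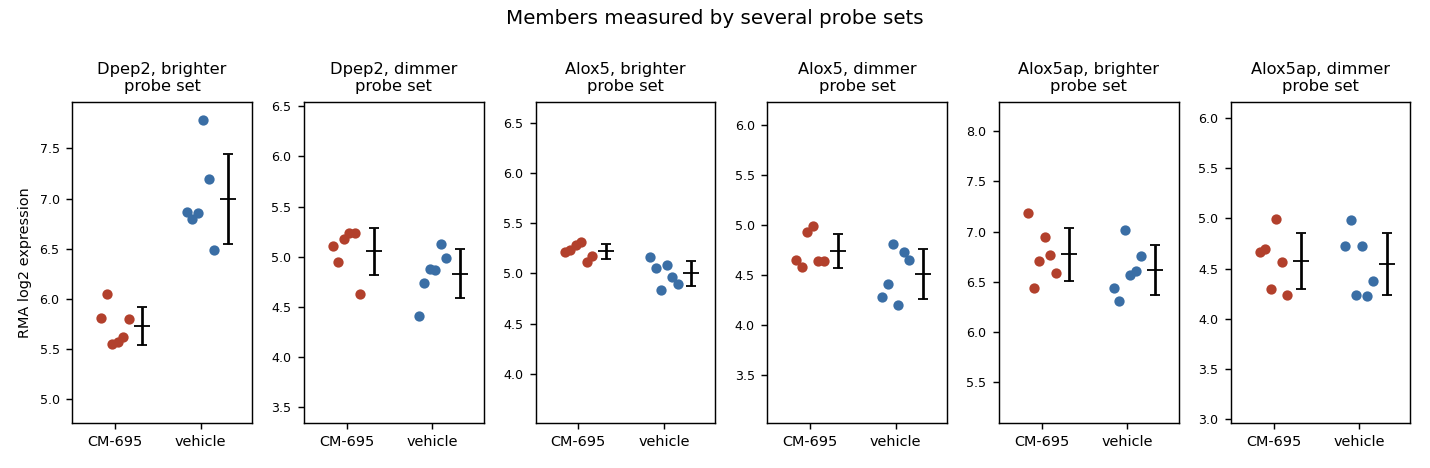
RMA log2 expression (vertical axes, each 3.2 log2 units tall) of the brighter and the dimmer probe set of Dpep2, Alox5 and Alox5ap in CM-695 (red, left) and vehicle (blue, right) aorta. Points are mice and black bars the mean and SD over 6 mice. Only the brighter Dpep2 probe set shows groups that do not overlap, and both Alox5 probe sets differ by 0.22 log2.

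The other dipeptidase genes did not pass the test. Dpep1 encodes the dipeptidase of kidney brush border, which also cleaves leukotriene D4. It ranged from 7.01 to 7.84 with a median of 7.48 after CM-695, against 7.45 to 8.30 with a median of 7.83 after vehicle. The groups overlapped, with 3 of 6 treated mice below the lowest vehicle mouse. The difference was -0.40 log2 (SE 0.17, 95% confidence interval -0.76 to -0.03, limma adjusted p = 0.505). Dpep3, whose product is found mainly in testis, measured 3.86 to 4.32 after CM-695 and 3.90 to 4.20 after vehicle. These values lay below the array median and their groups overlapped. The difference was -0.01 log2 (SE 0.10, limma adjusted p = 0.980), with a 95% confidence interval of -0.24 to 0.21. Dpep3 and Dpep2 are neighbours on chromosome 8, and Dpep1 lies on the same chromosome at 123186235 to 123201812.

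No leukotriene synthesis gene passed the test, although all 4 had means above those of vehicle. Alox5 ranged from 5.11 to 5.32 with a median of 5.22 after CM-695, against 4.83 to 5.16 with a median of 5.01 after vehicle. The groups overlapped narrowly, and 5 of 6 treated animals exceeded the highest vehicle animal. The CM-695 mean was 5.22 ± 0.07 and the vehicle mean 5.0 ± 0.12 (SD over 6 mice each), which differ by 0.22 log2 (SE 0.08, limma adjusted p = 0.432). The second Alox5 probe set gave 0.22 log2 as well (SE 0.13, adjusted p = 0.621). Ltc4s ranged from 6.46 to 6.91 with a median of 6.73 after CM-695, against 6.11 to 6.66 with a median of 6.38 after vehicle. Here 4 of 6 treated mice lay above all vehicle mice, and the difference was 0.30 log2 (SE 0.12, limma adjusted p = 0.493).

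The stretches before the starts of Alox5 and Ltc4s are shown because these 2 synthesis genes had the smallest unadjusted p-values among the members after Dpep2. They are the 250 bases before the RefSeq start, 5′ to 3′ on the gene's own strand, which is the minus strand for both. RefSeq promoters (GRCm38.p6) were matched for 5 of the 9 members, at chr6:116461179-116461428 for Alox5 and at chr11:50238533-50238782 for Ltc4s. Capitals mark a GC box.
Alox5: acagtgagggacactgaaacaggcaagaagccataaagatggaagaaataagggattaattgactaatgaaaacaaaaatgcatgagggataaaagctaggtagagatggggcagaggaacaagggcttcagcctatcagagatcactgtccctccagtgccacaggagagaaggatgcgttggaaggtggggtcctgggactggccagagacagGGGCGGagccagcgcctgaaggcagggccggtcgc
Ltc4s: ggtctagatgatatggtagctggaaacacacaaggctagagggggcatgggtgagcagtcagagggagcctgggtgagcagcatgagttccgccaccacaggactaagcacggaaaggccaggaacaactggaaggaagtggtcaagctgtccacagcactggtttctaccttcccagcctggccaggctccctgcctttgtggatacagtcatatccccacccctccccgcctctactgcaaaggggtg
The motifs searched on both strands were GGGCGG (GC box), CACGTG (E-box) and the glucocorticoid response element, with no overlapping matches in the printed windows. Alox5 held 1 GC box, beginning 35 bases before the start, and Ltc4s held 0. Of 32817 windows of the same length, 32.7% held a GC box, 6.02% an E-box and 0.387% the glucocorticoid response element, and neither printed window held an E-box or a glucocorticoid response element. A match in such a window is a description of its letters.

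The remaining members varied within the spread between mice. Alox5ap measured 6.43 to 7.18 after CM-695 and 6.31 to 7.02 after vehicle, a difference of 0.16 log2 (SE 0.14, limma adjusted p = 0.786). Lta4h measured 6.66 to 6.95 after CM-695 and 6.41 to 6.80 after vehicle, a difference of 0.11 log2 (SE 0.09, adjusted p = 0.758). Both genes had overlapping groups, and the interval of the difference ran from -0.15 to 0.47 for Alox5ap and from -0.08 to 0.30 for Lta4h. Ggt5, whose enzyme makes the substrate that dipeptidases cleave, measured 4.92 to 5.45 after CM-695 and 4.97 to 5.30 after vehicle. Its difference was -0.10 log2 (SE 0.11, adjusted p = 0.821), and CM-695 mouse 1 was both the highest treated animal and the only mouse above the vehicle range. Cysltr1, the receptor gene, measured 3.51 to 4.28 after CM-695 and 3.54 to 4.46 after vehicle, below the array median, with a difference of 0.13 log2 (SE 0.16, adjusted p = 0.853). Leaving out 1 mouse gave 0.048 (without vehicle mouse 1) to 0.23 (without CM-695 mouse 4 or vehicle mouse 6).

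**Figure D2:**
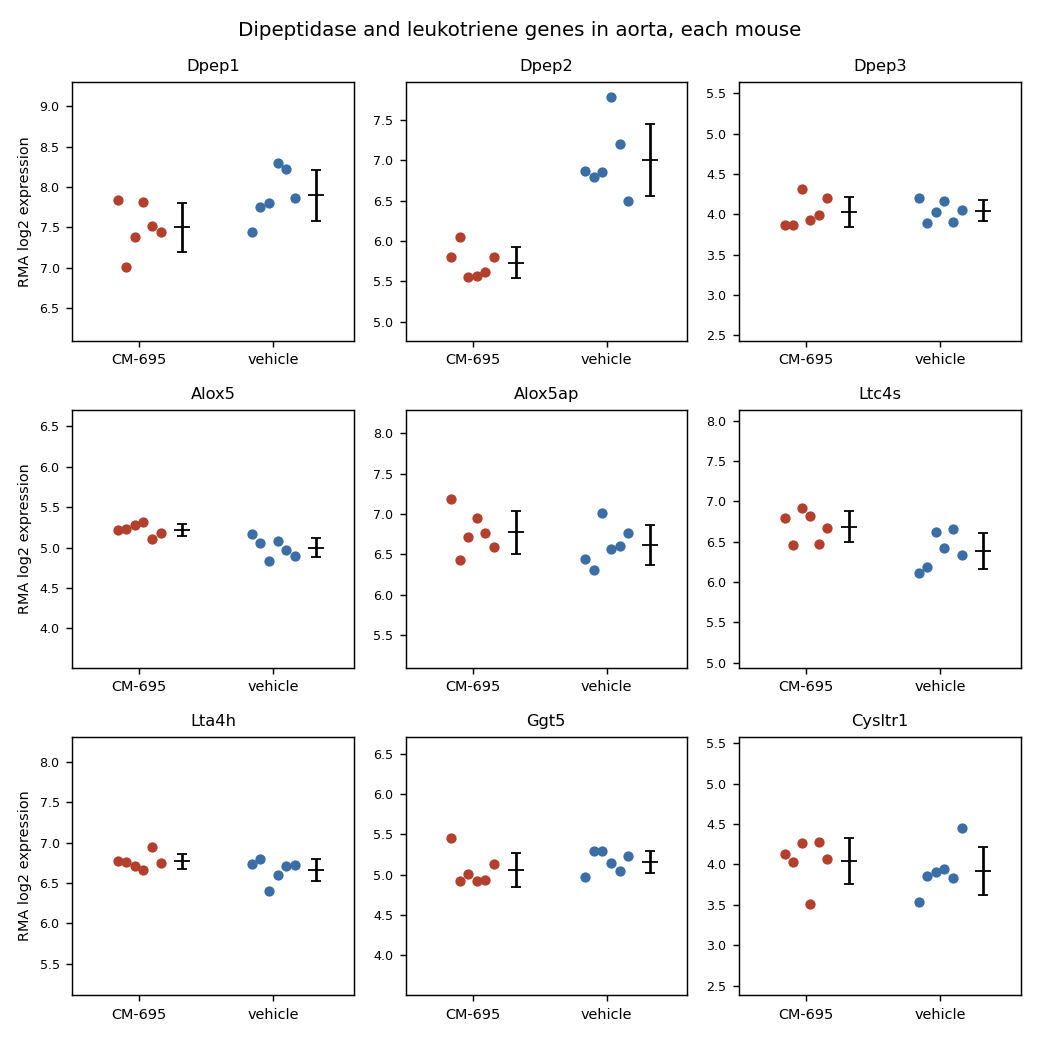
RMA log2 expression (vertical axes, each 3.2 log2 units tall) of the 9 members in CM-695 (red, left) and vehicle (blue, right) aorta. Points are mice in the order of their numbers and black bars the mean and SD over 6 mice. Dpep2 is the member whose groups do not overlap, at 5.55 to 6.05 after CM-695 and 6.49 to 7.79 after vehicle.

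Of the 8 members other than Dpep2, 0 passed the threshold of an adjusted p of 0.05 in limma; over all genes 0.167% passed, that is 0.144% lower and 0.0225% higher (over all probe sets 0.155%, that is 0.131% lower and 0.0242% higher). These 8 had 5 differences above 0 and 3 below, a median of 0.12 log2 and adjusted p-values of 0.432 to 0.980 in limma. The median over all genes was 0.02 log2, and 12267 of 22180 differences were above 0. Dpep1, Alox5 and Ltc4s had an unadjusted p under 0.05, that is 3 of 8, where 9.10% of all genes did. Synthesis members (Alox5, Alox5ap, Ltc4s, Lta4h) were above 0 in 4 of 4 cases, and the genes of the transferase and the dipeptidases (Ggt5, Dpep1, Dpep3), Dpep2 left aside, below 0 in 3 of 3. Since none of them passed, these signs are a description, that of Dpep3 turned with array weights, with the cardiac covariate and without single mice, and that of Alox5ap turned with the cardiac covariate.

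Further along the pathway, no gene passed either. Of 38 listed genes of arachidonate release, lipoxygenases, leukotriene synthesis, receptors, export and breakdown, and glutathione breakdown, 35 were measured, with 26 differences above 0, 9 below and a median of 0.06 log2. Over all genes 12267 of 22180 differences were above 0. In limma 0 passed in either direction, where 0.167% of all genes passed. An unadjusted p under 0.05 was found for 4 of the 35, 2 higher and 2 lower, against 9.10% of all genes. Alox15, the lipoxygenase of resident macrophages and eosinophils, had the largest difference of the list without covariates. It ranged from 5.74 to 6.99 with a median of 6.37 after CM-695, against 5.33 to 6.12 with a median of 5.66 after vehicle, a difference of 0.71 log2 (SE 0.23, limma adjusted p = 0.344). With the cardiac mean as a covariate it was 0.30 log2. Among the named pathway genes, Abcc1 (-0.55), Pla2g6 (0.39), Pla2g2d (0.36) and Chac1 (-0.36) then differed more. Abcc1, which exports leukotriene C4 from cells, measured 7.05 to 8.0 after CM-695 and 7.48 to 8.10 after vehicle, a difference of -0.39 log2 (SE 0.16, adjusted p = 0.485). Chac1, which splits intracellular glutathione and had the smallest p of the 35, measured 4.62 to 5.01 after CM-695 and 5.08 to 5.46 after vehicle. Its groups did not overlap, by a gap of 0.08 log2, where 0.636% of all genes had groups separated downward. Its difference was small, -0.33 log2 (SE 0.10, adjusted p = 0.284).

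The phospholipase genes Pla2g6 and Pla2g2d, whose products free fatty acids from phospholipids, differed by 0.25 log2 each (SE 0.11 and 0.12; limma adjusted p = 0.505 and 0.552). The receptor gene Oxgr1 differed by 0.22 log2 (SE 0.11, adjusted p = 0.581) at levels below the array median. Counted by step, differences above 0 were found in 6 of 7 genes of arachidonate release and 6 of 6 other lipoxygenases. The counts were 2 of 3 for other synthesis genes and 3 of 4 for other receptors. They were 3 of 6 for export and breakdown and 6 of 9 for glutathione breakdown. Over all genes 12267 of 22180 were above 0. The lipoxygenase genes Aloxe3, Alox12b, Alox8 and Alox12e differed by 0.0062 to 0.040 log2 (SE 0.09 to 0.12). Of the 6 lipoxygenase genes, 2 were brighter than the median probe set.

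**Figure D3:**
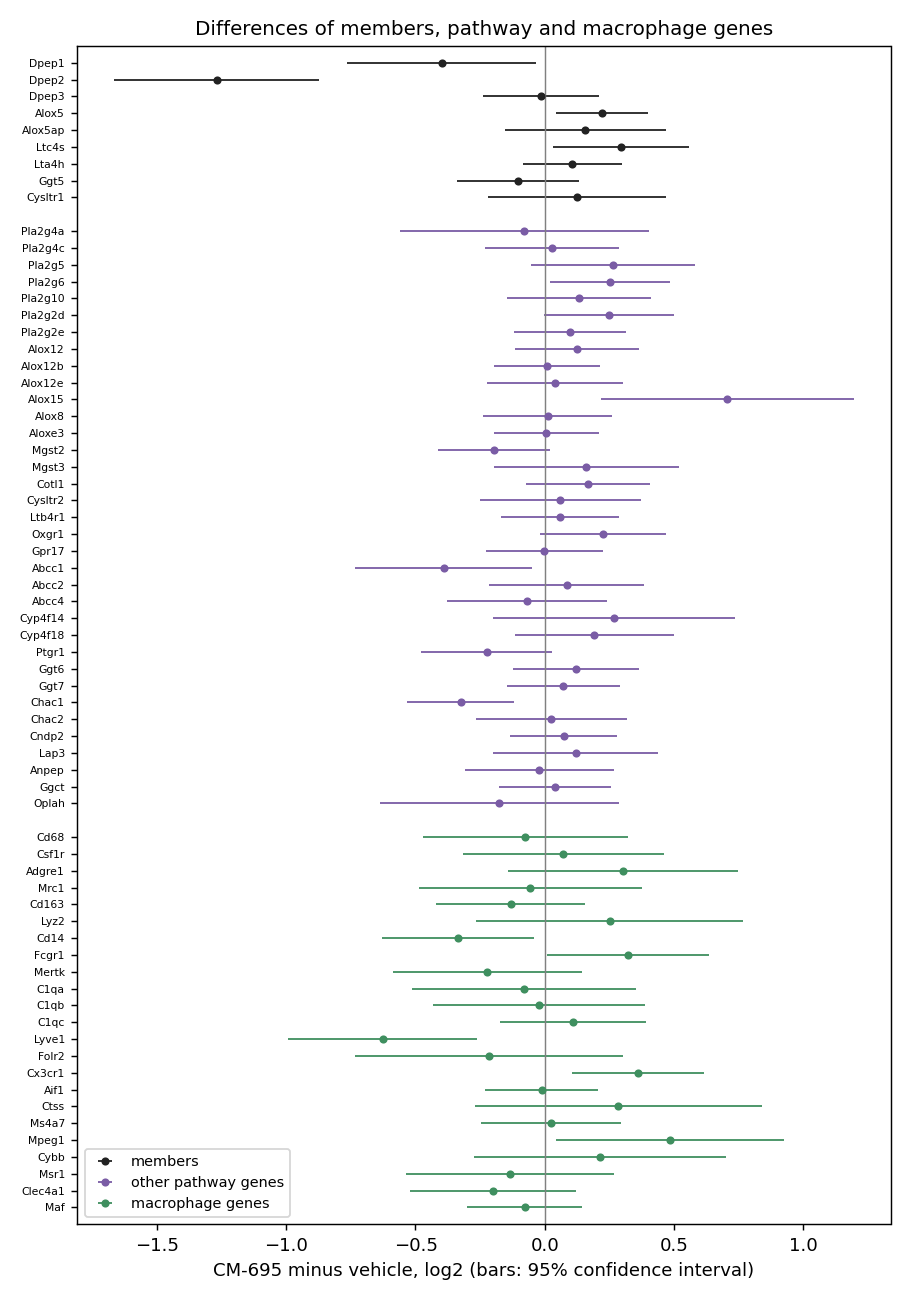
CM-695 minus vehicle differences on the log2 scale (horizontal axis) for the 9 members (black), 35 other pathway genes (purple) and 23 macrophage genes (green). Points are differences of group means over 6 mice each and bars limma's 95% confidence intervals. Dpep2, chosen for this difference and read from its brighter probe set, lies at -1.27. The other genes plotted run from -0.63 for Lyve1 to 0.71 for Alox15. Heart muscle genes, with a median of -1.68, are not plotted.

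No macrophage gene passed the test. Cd68, a lysosomal protein gene of macrophages, ranged from 6.38 to 7.0 with a median of 6.75 after CM-695, against 6.19 to 7.18 with a median of 6.85 after vehicle. The treated values lay inside the vehicle range, and the difference was -0.08 log2 (SE 0.18, 95% confidence interval -0.47 to 0.32, limma adjusted p = 0.937). Csf1r, the receptor for the growth factor that macrophages depend on, ranged from 6.26 to 7.05 with a median of 6.73 after CM-695, against 6.02 to 6.97 with a median of 6.66 after vehicle. Its groups overlapped almost wholly, and the difference was 0.07 log2 (SE 0.18, 95% confidence interval -0.32 to 0.46, adjusted p = 0.939). The difference of Cd68 was 0.0031 without vehicle mouse 5 and 0.0056 without vehicle mouse 6, and that of Csf1r -0.042 without vehicle mouse 1 and -0.0055 without CM-695 mouse 1.

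All 23 listed macrophage genes were measured, 20 of them brighter than the median probe set, and 10 were above 0, 13 below, with a median of -0.02 log2. In limma 0 passed over all probe sets, where 0.167% of all genes did. Of the 23, 5 had an unadjusted p under 0.05, 3 higher and 2 lower, against 9.10% of all genes. Lyve1, a hyaluronan receptor of resident vessel wall macrophages and of lymphatic endothelium, had the largest negative difference at -0.63 log2 (SE 0.17, adjusted p = 0.226). Its values were 6.99 to 7.47 after CM-695 and 7.25 to 8.34 after vehicle. Cd14, a co-receptor for endotoxin, differed by -0.34 log2 (SE 0.14, adjusted p = 0.484). In the other direction the chemokine receptor gene Cx3cr1 differed by 0.36 log2 (SE 0.12, adjusted p = 0.347) and Mpeg1, a pore-forming protein of macrophages, by 0.48 log2 (SE 0.20, adjusted p = 0.505).

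The defining genes Adgre1 (F4/80), C1qa, Mrc1 and Lyz2 differed by 0.30, -0.08, -0.06 and 0.25 log2 (SE 0.21, 0.20, 0.20 and 0.24), with limma adjusted p-values of 0.697 to 0.958. The mean of the 23 genes was 6.12 ± 0.20 in CM-695 mice and 6.11 ± 0.25 in vehicle mice (SD over 6 mice each), ranging from 5.82 to 6.29 in treated and from 5.79 to 6.34 in vehicle mice. Set against this mean in the same mouse, Dpep2 was -0.72 to 0.23 after CM-695 and 0.16 to 1.98 after vehicle. These ranges overlap, because CM-695 mouse 2, at 0.23, exceeded vehicle mouse 6, at 0.16. The difference of this relative value was -1.28 log2 (SE 0.29), beside -1.27 for Dpep2 alone. With the macrophage mean as a covariate the difference of Dpep2 was -1.26 log2.

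From mouse to mouse within a group, no relation of Dpep2 to macrophage genes passed the test, and 6 mice cannot settle it. Every r and rho given for Dpep2 reads its brighter probe set alone. Among the 6 CM-695 mice Pearson's r of Dpep2 with the macrophage mean was -0.80 (exact permutation p = 0.0514, adjusted p = 0.308) and Spearman's rho -0.43 (exact permutation p = 0.419, adjusted p = 0.658). Among the 6 vehicle mice r was -0.54 (exact permutation p = 0.288, adjusted p = 0.431) and rho -0.49 (exact permutation p = 0.356, adjusted p = 0.658). The p-values are two-sided and adjusted over 6 relations, and none passed. Without mice 2 and 6, the 2 treated mice with the lowest macrophage mean, r was 0.26 in the other 4 treated mice. Leaving out 1 treated mouse at a time gave -0.93 to -0.50. Without the 2 most distant vehicle mice r was -0.12. The dimmer Dpep2 probe set ordered the mice otherwise. In vehicle mice it was lowest in mouse 1 (4.41) and highest in mouse 5 (5.13), with macrophage means of 5.79 and 6.27. In CM-695 mice it was lowest in mouse 6 (4.63) and highest in mouse 5 (5.24), with macrophage means of 5.92 and 6.25. At these extremes it ran in the same direction as the macrophage mean, and its relation was not tested.

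For Cd68 r was -0.58 in CM-695 mice (exact permutation p = 0.224, adjusted p = 0.431) and -0.38 in vehicle mice (exact permutation p = 0.479, adjusted p = 0.575), with rho of -0.31 (exact permutation p = 0.564) and -0.49 (exact permutation p = 0.356). For Csf1r r was -0.56 in CM-695 mice (exact permutation p = 0.235, adjusted p = 0.431) and -0.28 in vehicle mice (exact permutation p = 0.603, adjusted p = 0.603), with rho of -0.26 in both groups (exact permutation p = 0.658). Every adjusted p of rho in this family was 0.658. Without the 2 mice farthest from the median all 4 of these r turned positive, to 0.67 and 0.91 in CM-695 mice and 0.059 and 0.24 in vehicle mice. Dropping these mice leaves 4 and takes out much of the spread, so it cannot show whether the negative values depend on them. Leaving out 1 mouse at a time gave r of -0.87 to -0.26 (CM-695) and -0.68 to -0.016 (vehicle) for Cd68. For Csf1r it gave -0.88 to -0.12 (CM-695) and -0.63 to 0.045 (vehicle).

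**Figure D4:**
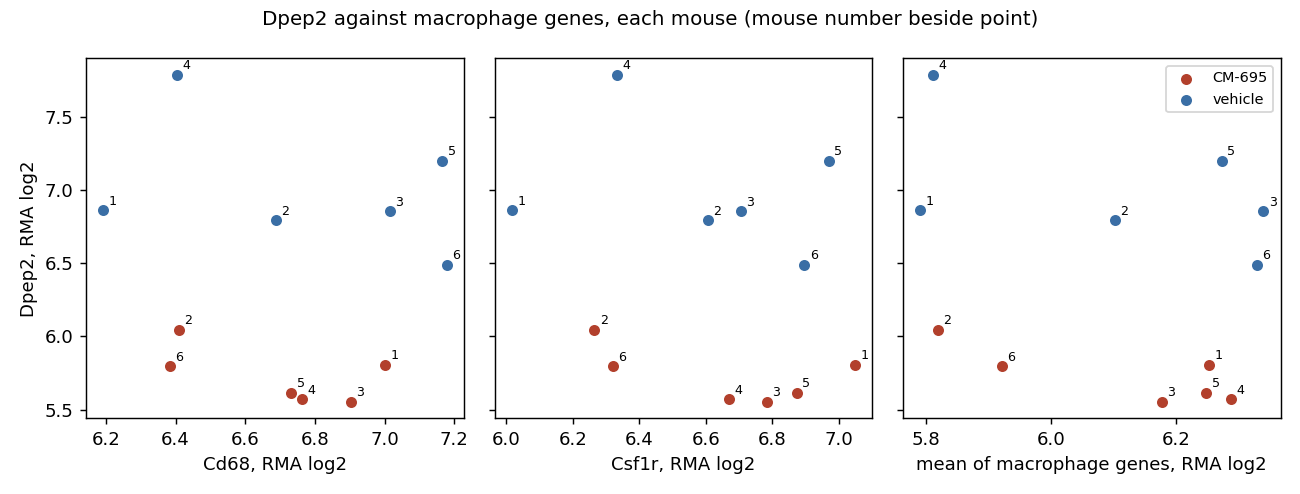
Dpep2, read from its brighter probe set (vertical axis), against Cd68, Csf1r and the mean of 23 macrophage genes (horizontal axes), all in RMA log2 expression. Each mouse is 1 point with its number beside it, CM-695 in red and vehicle in blue. The groups separate along the Dpep2 axis and overlap along each horizontal axis, with macrophage means of 5.82 to 6.29 after CM-695 and 5.79 to 6.34 after vehicle.

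Markers of other cell types were read beside Dpep2. Neutrophil genes, another source of leukotrienes, had 10 of 10 members measured but 1 brighter than the median probe set, and their mean was 3.86 to 4.17 after CM-695 and 3.84 to 4.01 after vehicle. Mast cell genes (8 of 8 measured, median difference 0.13 log2) had a mean of 4.40 to 5.13 after CM-695 and 4.34 to 5.01 after vehicle. Monocyte genes (6 of 6) had a median of -0.12, dendritic cell genes (5 of 6) of 0.09, and T and NK cell genes (5 of 6) of 0.12 log2. B cell genes (4 of 5 measured) were above 0 in 4 of 4 cases with a median of 0.41 log2, among them Cd79b, a part of the B cell receptor, at 0.42 log2 (SE 0.15, limma adjusted p = 0.390). Their mean was 4.80 to 5.65 after CM-695 and 4.48 to 5.14 after vehicle. No gene of these lists passed, where 0.167% of all genes did.

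Heart muscle genes had differences of the same sign as Dpep2, without passing the test. The median difference of 8 measured genes was -1.68 log2, and 8 of 8 were below 0. In limma 0 passed over all probe sets, where 0.167% of all genes did. An unadjusted p under 0.05 was found for 7 of 8, against 9.10% of all genes. Among them was the atrial light chain gene Myl7 at -1.89 log2 (SE 0.50, limma adjusted p = 0.212). The mean of the 8 genes per mouse ran from 6.33 to 8.96 after CM-695 and from 7.76 to 9.92 after vehicle. CM-695 mouse 3, with the highest cardiac mean among treated mice at 8.96, had the lowest Dpep2 of all at 5.55. CM-695 mouse 1, with the lowest at 6.33, had a Dpep2 of 5.81. Vehicle mouse 3, with the lowest cardiac mean among vehicle mice at 7.76, had a Dpep2 of 6.86. Vehicle mouse 2, with the highest cardiac mean at 9.92, had a Dpep2 of 6.80. These mice are only the extremes of each group, and the relation over all 12 mice was not tested. The cardiac mean itself differed by -1.49 log2 between the groups. With the cardiac mean as a covariate the difference of Dpep2 was -1.31 log2, and in that fit 0 of the 9 members passed and 13 probe sets did, against 64 without the covariate. Fibroblast genes were below 0 in 7 of 7 cases with a median of -0.46 log2, and their mean was 8.66 to 9.13 after CM-695 and 8.87 to 9.71 after vehicle. The part of heart muscle or fibroblast RNA in the result was not tested.

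In the remaining lists no gene passed, where 0.167% of all genes did. Smooth muscle genes (6 measured) had a median difference of -0.25 log2, endothelial genes (6) of 0.01, adipocyte genes (6) of 0.05 and platelet genes (5 of 6) of 0.32 log2. Ppbp, a platelet chemokine gene, differed by 0.76 log2 (SE 0.29, limma adjusted p = 0.446).

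The genes around Dpep2 on chromosome 8 were compared as well. Its 3 protein-coding neighbours on the side of lower coordinates are Lcat, Slc12a4 and Dpep3, and on the other side Ddx28, Dus2 and Nfatc3. All 6 were measured. Of these, 0 passed and 0 had an unadjusted p under 0.05 in limma, where 0.167% and 9.10% of all genes did. Differences ran from -0.37 to 0.14 log2 and limma adjusted p-values from 0.694 to 0.985. The lowest of these belonged to the potassium chloride cotransporter gene Slc12a4 (-0.37 log2, SE 0.25), for which CM-695 mouse 2 was high at 7.56 while the other treated mice reached 6.60.

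Likeness to the brighter Dpep2 probe set was measured as Pearson's r of deviations from the group means over all 12 mice, which leaves the difference between groups out. The dimmer probe set was not compared in this way. Among 12903 other genes brighter than the median probe set, r had a median of -0.04 with a 5th percentile of -0.58 and a 95th percentile of 0.50. The 6 most like Dpep2, after 4 small RNAs and predicted genes that ranked among them, were Inafm1 (r = 0.86), Aif1l (0.82), B4galt7 (0.81), Zkscan1 (0.80), Hgfac (0.79) and Zfp524 (0.79). They are the extreme of many genes over 12 mice. Inafm1, the closest, measured 5.77 to 6.22 after CM-695 and 5.73 to 6.34 after vehicle, with a difference of -0.05 log2 (SE 0.11, limma adjusted p = 0.921), so it did not share the separation between the groups. The other 8 members ranged from -0.21 for Alox5ap to 0.32 for Dpep1. The 23 macrophage genes ranged from -0.77 for Clec4a1 to 0.35 for Maf, with a median of -0.40. Of these, 20 of 23 lay below 0, where 53.9% of the 12903 genes did. Being markers of 1 cell type, they are not 23 separate observations.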

How the data were processed

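Total RNA of 12 aortas, 6 per group, was hybridised to 1 array each. The authors deposited log2 expression values for 41345 probe sets, made with RMA, per the submitters' processing notes; the software is not given in the sources used here. Gene names came from the platform annotation, where 23521 probe sets carry a single symbol, and the 1 with the highest mean stood for a gene. Groups were compared as CM-695 minus vehicle with limma 3.58.1 in R 4.3.3 (lmFit, eBayes, two-sided) over all probe sets, adjusted by the Benjamini-Hochberg method at 0.05, and the procedure was tested on simulated data. Dpep2 was picked for its value in this contrast, so whether it passes the threshold, which the closing section counts under each alternative, supports nothing. List means are means of log2 values. Relations within a group used exact permutation over 720 pairings. The members, lists and tests were chosen with earlier results of these data known. Named genes were the members, Cd68, Csf1r, the pathway and macrophage genes with the smallest p, 4 defining macrophage genes, up to 2 genes per other marker list, the 6 most like Dpep2 and its 6 neighbours. Alternatives were the replicate number as a block, repeated quantile normalization, median centring, array weights, eBayes with trend and robust, macrophage or cardiac means as covariates, a filter on dim probe sets, the dimmest probe set per gene, and leaving out each mouse.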

Additional observations from a re-analysis of the deposited data

Results flagged for a closer look

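In 9 of 122 combinations of a named gene and a group, 1 mouse lay far from the other 5 by Dixon's criterion; chance gives about 1 in 20. The member among them was Cysltr1, for which CM-695 mouse 4 was low at 3.51 (others 4.03 to 4.28). Among pathway genes, Pla2g2d was high in vehicle mouse 6 at 6.43 (others 5.83 to 6.04) and Oxgr1 high in CM-695 mouse 1 at 4.11 (others 3.79 to 3.89). Among marker genes, Retnlg of neutrophils was high in vehicle mouse 6 at 4.17 (others 3.39 to 3.63), Plin1 of adipocytes low in CM-695 mouse 2 at 8.70 (others 9.55 to 10.04), Tnni3 of heart muscle low in vehicle mouse 3 at 7.30 (others 8.87 to 9.57), and Ppbp of platelets high in vehicle mouse 3 at 7.04 (others 5.71 to 6.20). Hgfac, among the genes most like Dpep2, was low in CM-695 mouse 3 at 5.19 (others 5.32 to 5.39), and Slc12a4, a neighbour of Dpep2, high in CM-695 mouse 2 at 7.56 (others 6.22 to 6.60).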

How the results depend on the processing

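The difference of Dpep2 lay between -1.37 and -1.11 log2 in 20 alternatives. The 1 member past the threshold was Dpep2, chosen on this contrast, and 4 of these alternatives left 0; the cause was not tested. The dimmest probe set per gene turned its sign (0.22), that of Dpep2 minus the macrophage mean (0.20) and left 0 members past the threshold; why the 2 probe sets differ was not tested. With the replicate block 15 probe sets and 0 members passed, and the block changed no other call; same-numbered mice correlated between -0.10 and 0.10 in their deviations and 1 of 6 treated mice correlated best with its own number, so the numbers gave no sign of pairing. With the cardiac mean as covariate 13 probe sets and 0 members passed, and Dpep3 (0.080) and Alox5ap (-0.13) changed sign; with array weights Dpep3 did (0.0094). The filter on dim probe sets gave 116 passing probe sets, against 64 over all. Leaving out 1 mouse gave 22 to 98 probe sets and 0 to 1 members, 0 without CM-695 mouse 3 or 5. It also turned the sign of differences near 0, which ran from -0.19 to 0.0056 for Cd68, -0.042 to 0.15 for Csf1r, -0.072 to 0.020 for Dpep3, -0.24 to 0.016 for C1qa and -0.17 to 0.078 for Mrc1, and of r for Csf1r in vehicle mice (-0.63 to 0.045). Without the 2 mice farthest from the median, r turned to 0.67 (Cd68) and 0.91 (Csf1r) in CM-695 mice, 0.059 and 0.24 in vehicle mice and 0.26 for the macrophage mean in CM-695 mice. No pathway or macrophage gene passed under any alternative run. Low signal limits Dpep3 and Cysltr1, whose values lie below the array median.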

Other observations

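Among the 12903 genes compared with Dpep2 by their deviations from the group means, Psmb10, an immunoproteasome subunit gene chosen after its value was seen, had the lowest r, -0.92 over 12 mice. It measured 6.51 to 7.09 after CM-695 and 6.32 to 7.01 after vehicle, with a difference of 0.08 log2 (SE 0.13, limma adjusted p = 0.893). Psmb10 lies on chromosome 8, on the far side of Lcat from Dpep2.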
